A study of Mus musculus with 16 samples.

Results

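Drugs, alcohols, aldehydes and many of the liver's own lipids and hormones are cleared by a small number of large enzyme families, and the members of 9 such families were followed here across the RNA sequencing of mouse hepatic stellate cells. The families were the cytochromes P450 (Cyp), UDP-glucuronosyltransferases (Ugt), glutathione S-transferases (Gst), sulfotransferases (Sult), carboxylesterases (Ces), aldehyde dehydrogenases (Aldh), alcohol dehydrogenases (Adh), flavin-containing monooxygenases (Fmo) and retinol dehydrogenases (Rdh). A member was any row of the expression tables whose gene symbol began with a family stem followed by its number, so the choice was made by name and not by level. These were 82 of the 5954 distinct genes named in the tables. In the comparison of quiescent hepatic stellate cell (qHSC) fractions 81 of 5716 rows were members, after WT1 deletion in GFP-intermediate activated hepatic stellate cells (aHSCs) 2 of 419, and after WT1 deletion in GFP-high aHSCs 0 of 123.

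The series holds 16 RNA samples of cells isolated from liver by density centrifugation and sorted by flow cytometry, all from C57/Bl6 mice. The 6 qHSC samples came from 3 uninjured animals of genotype WT1CreERT2;Ai14, in which tamoxifen given at E10.5 marked cells expressing WT1, a transcription factor of the embryonic mesothelium, with the red fluorescent reporter Ai14. Each of these animals gave an RFP-positive fraction, called label-positive below, and an RFP-negative fraction, called label-negative. The labels give all animals as male, whereas the study's methods give female animals for the isolation of adult qHSCs labelled at E10.5. The 10 aHSC samples came from 6 animals given carbon tetrachloride (CCl4) for 8 weeks, controls of genotype PDGFRbCre;WT1_+_GFP;Ai14 and WT1-deleted animals of genotype PDGFRbCre;WT1_fl_GFP;Ai14. RFP-positive cells of these animals were sorted by GFP brightness into a high fraction, with 3 control and 3 deleted samples, and a low fraction, called GFP-intermediate in the study, with 2 control and 2 deleted samples. Of the latter, 1 control sample was pooled from 2 animals.

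The models set limits on the groups. PDGFRβCre is constitutive and acts in any cell that has expressed PDGFRβ, control and deleted animals alike carried a WT1 allele replaced by GFP, and the label-negative fraction could hold any unlabelled cell of the preparation. For each listed gene the authors deposited 1 FPKM (fragments scaled to transcript length and library size) for each group, with the replicates combined. Called below means having a row. The study's methods set calls at an adjusted p-value of 0.05, and the 5716 rows of the qHSC comparison match its count of changed genes. The named rows of the deletion tables outnumber the genes that the study's text counts as changed. The reason was not tested, and the threshold behind those rows is unknown. Values per sample were not used here, the depth is unknown, and neither a standard deviation nor a new test is given. A gene without a row has no value, which does not show that it was absent or equal in both groups. The 3 tables were normalised separately and are not compared in level.

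Most of these enzymes work in 2 steps. Cytochromes P450, flavin monooxygenases, carboxylesterases and the dehydrogenases expose or modify a reactive group, and the glutathione, glucuronosyl and sulfo transferases then attach a polar group that makes the product easier to excrete. Ethanol is oxidised to acetaldehyde and then to acetate, and vitamin A follows the same chemistry, from retinol through retinaldehyde to retinoic acid, which the Cyp26 enzymes degrade. Hepatocytes carry the bulk of this activity in the liver, whereas quiescent stellate cells store vitamin A as retinyl esters and liver sinusoidal endothelial cells scavenge circulating material.

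Enzymes of these families were higher in label-positive than in label-negative qHSCs across most of the list. Of the 81 members, 72 were higher in the label-positive fraction, or 88.9%, against 50.4% of all rows. Of the 80 members above 0 in both fractions, 67 were at least 2-fold higher, against 38.4% of all such rows, and 9 were at least 2-fold lower, against 42.4%. The median log2 ratio of label-positive to label-negative FPKM was 1.52 for the members and 0.64 for all rows. Relative to that median of all rows, 35 members were at least 2-fold higher, and the directions of all 72 and 9 members were kept. The summed FPKM of the members was 1379 in the label-negative and 3826 in the label-positive fraction. Over the same comparison 22 of 23 called hepatocyte markers and all 15 sinusoidal endothelial markers were also higher, and these values are given in full beside the enzymes further on.

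**Figure D1:**
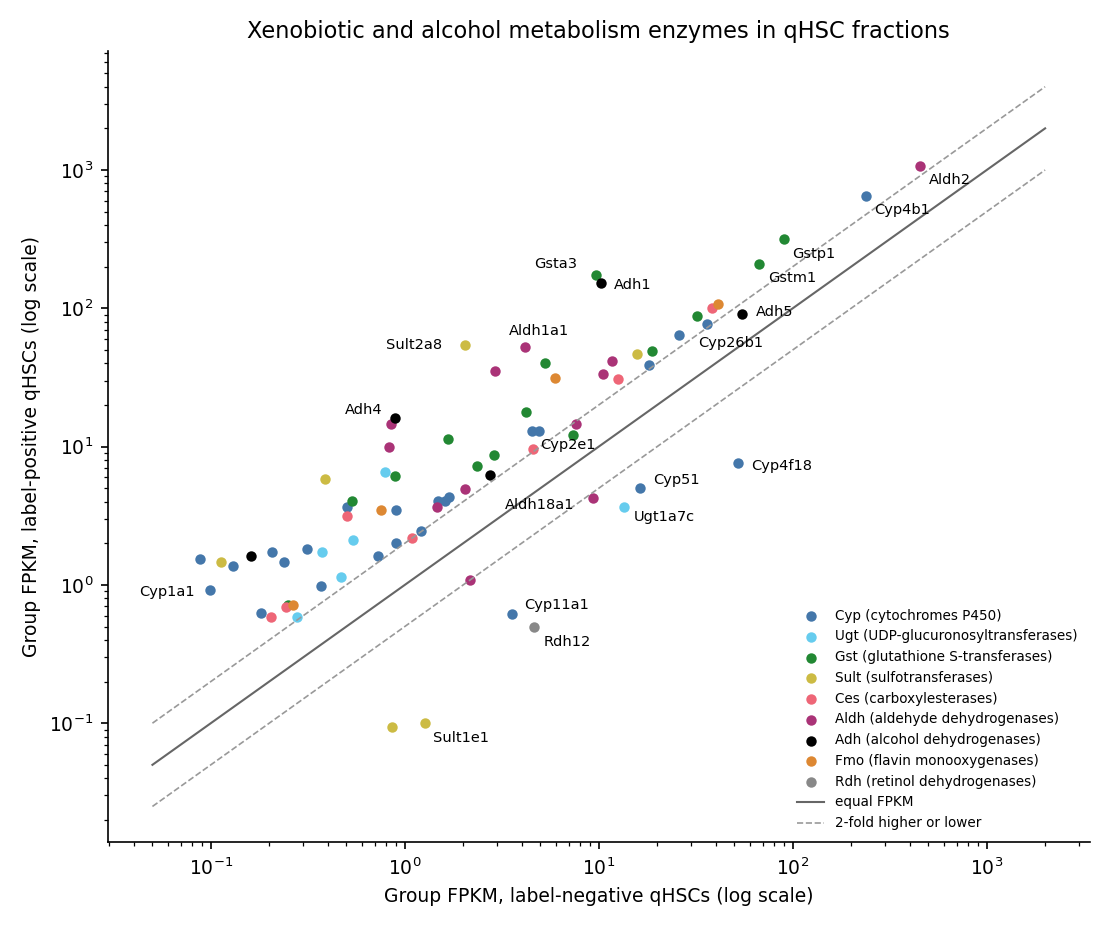
Each point is a member enzyme with FPKM above 0 in both fractions, placed by the authors' group FPKM in label-negative (x) and label-positive (y) qHSCs, both on log scales and coloured by family. The solid line marks equal FPKM and the dashed lines a 2-fold difference, and 67 of 80 points lie on or above the upper dashed line while 9 lie on or below the lower one.

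The difference took different sizes at different levels. The 2 most abundant members, Aldh2 and Cyp4b1, were 2.37-fold and 2.72-fold higher in the label-positive fraction. By contrast, 16 of the 80 members above 0 in both fractions were at least 8-fold higher, against 169 of all 5584 such rows. Among these 16 only 7 reached an FPKM of 10 in the label-positive fraction. These 7 were Sult2a8, Adh4, Gsta3, Aldh8a1, Adh1, Aldh1a1 and Aldh1l1. At an FPKM of 50 or more there were 14 members in the label-positive and 6 in the label-negative fraction. The same count over all rows was not made, so it describes the members only. Over all rows the summed FPKM was 322799 in the label-negative and 243032 in the label-positive fraction. Levels were low for many others, and 10 members had an FPKM below 1 in both fractions. A single member, the pseudogene Cyp4b1-ps2, was listed at 0 in the label-negative fraction and at 0.245 in the label-positive fraction.

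All 9 called enzymes of a 14-gene list of ethanol and aldehyde oxidation were higher in label-positive qHSCs. Aldh2, the mitochondrial enzyme that clears most acetaldehyde, had the highest FPKM of any member, 455 in the label-negative and 1077 in the label-positive fraction. Adh1, the class I alcohol dehydrogenase that oxidises ethanol and retinol, had an FPKM of 10.3 and 152, a 14.7-fold difference. Adh4, a liver alcohol dehydrogenase of class II, was 18.2-fold higher, from 0.886 to 16.1. Adh5, broadly expressed across tissues, which oxidises the glutathione adduct of formaldehyde, differed least, with 54.6 and 91.3, or 1.67-fold. The family thus spread from 1.67-fold to 18.2-fold, with the broadly expressed enzyme at the lower end.

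Cyp2e1, the ethanol-inducible cytochrome P450, stood at an FPKM of 4.54 in the label-negative and 13.0 in the label-positive fraction, 2.87-fold higher. The mitochondrial Aldh1b1 stood at 2.04 and 4.92, and Aldh7a1, which acts in lysine breakdown and on aldehydes of lipid peroxidation, at 11.7 and 41.3. The remaining alcohol dehydrogenases were low, with Adh6b at 2.75 and 6.26 and the pseudogene Adh6-ps1 at 0.161 and 1.63. The other 5 genes of the list, Adh6a, Adh7, Aldh3a1, Aldh3a2 and Aldh9a1, had no row.

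Aldehyde dehydrogenases with other substrates were also mostly higher. Aldh1l1, a folate enzyme that oxidises formyltetrahydrofolate, stood at an FPKM of 2.90 in the label-negative and 34.9 in the label-positive fraction, 12.0-fold higher. Aldh6a1, an enzyme of valine breakdown, stood at 10.6 and 33.7. Smaller differences were seen for Aldh4a1 of proline breakdown, with 7.61 and 14.5, and for Aldh5a1, the succinic semialdehyde dehydrogenase, with 1.47 and 3.64. Aldh18a1, which makes the precursor of proline rather than oxidising an aldehyde, ran the other way, at 9.31 in the label-negative and 4.24 in the label-positive fraction. In all, 10 of 12 Aldh rows were higher in the label-positive fraction, with a median log2 ratio of 1.49.

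Enzymes of vitamin A metabolism were called in both directions. Of 24 such enzymes in the families, 9 had a row, 7 higher and 2 lower in label-positive cells, with log2 ratios from -3.21 for Rdh12 to 4.19 for Adh4. Of the retinaldehyde dehydrogenases, which make retinoic acid, Aldh1a1 stood at an FPKM of 4.17 in the label-negative and 52.1 in the label-positive fraction, 12.5-fold higher. Its close relative Aldh1a7 stood at 0.833 and 9.96, and Aldh8a1, which accepts retinaldehyde and also acts in tryptophan breakdown, at 0.844 and 14.5. Aldh1a2, the retinaldehyde dehydrogenase of embryonic mesothelium and mesenchyme, was instead lower, at 2.16 and 1.08.

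Rdh12, which interconverts retinaldehyde and retinol, was the only Rdh gene with a row and was 9.27-fold lower in label-positive cells, at 4.61 and 0.498. Cyp26b1, which breaks down retinoic acid, was 2.14-fold higher, at 36.0 and 77.1. Among 23 further genes of retinoid handling outside the families, 9 had a higher and 3 a lower FPKM in label-positive cells and 11 had no row, Lrat, the stellate cell enzyme that esterifies retinol, among them. Rbp4 and Ttr, which carry retinol in plasma and are made by hepatocytes, were 9.09-fold and 5.95-fold higher. Dhrs3, which returns retinaldehyde to retinol, stood at 114 and 233. Dgat1, which can also esterify retinol, was 4.67-fold lower, at 131 and 28.0.

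**Figure D2:**
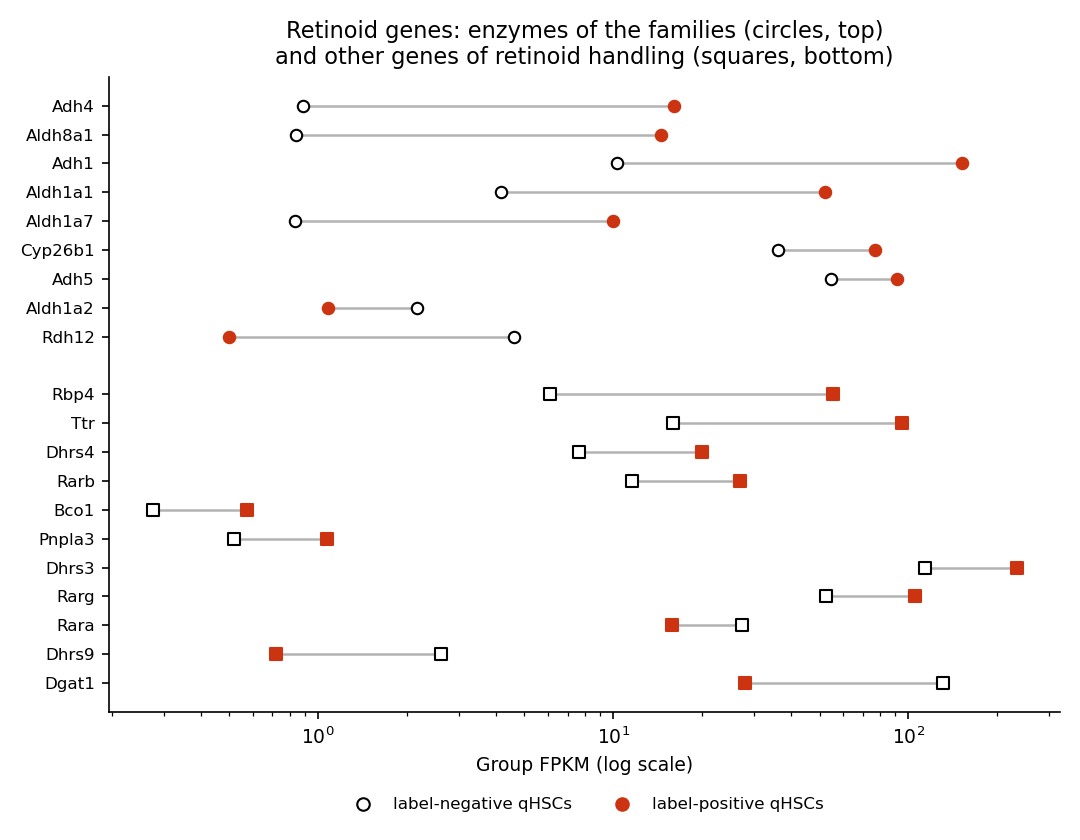
Authors' group FPKM on a log scale for retinoid genes with a row in the qHSC table, with open symbols for label-negative and filled red symbols for label-positive cells. Circles are the 9 enzymes of the families, and squares are 11 of the 12 other genes of retinoid uptake, storage, transport and signalling. Adh4, Aldh8a1, Adh1, Aldh1a1 and Aldh1a7 show the long bars to the right, while Aldh1a2, Rdh12, Rara, Dhrs9 and Dgat1 run to the left.

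All 14 glutathione S-transferases with a row were higher in label-positive qHSCs, 13 of them by at least 2-fold. Their summed FPKM was 244 in the label-negative and 947 in the label-positive fraction, and the median log2 ratio was 1.73. Gsta3, an alpha-class enzyme that detoxifies aflatoxin in mice, had an FPKM of 9.69 and 175, 18.1-fold higher. The pi-class Gstp1 was the most abundant of the family, at 90.3 and 316. The mu-class Gstm1 followed with 67.3 and 210.1, and Gstm2 with 32.0 and 88.2. Gsta3 was thus far below Gstm2 in the label-negative fraction and above it in the label-positive fraction.

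The rest of the family belonged to the kappa, zeta, alpha, theta, mu and pi classes. Gstk1, found in mitochondria and peroxisomes, stood at an FPKM of 18.9 in the label-negative and 49.1 in the label-positive fraction. Gstz1, which acts in tyrosine breakdown, was 7.59-fold higher, at 5.26 and 39.9, and Gsta4, which conjugates the lipid peroxidation product hydroxynonenal, 6.83-fold higher, at 1.66 and 11.4. The theta-class genes Gstt1, Gstt3 and Gstt2 differed by 4.24-fold, 3.05-fold and 1.66-fold, the last being the smallest of the family. Gstm7, Gstm6, Gstm3 and Gstp2 had an FPKM below 9 in both fractions.

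Genes that supply glutathione or belong to the oxidant response governed by Nrf2 did not all move with the transferases. Of a 20-gene list, 10 were higher and 4 lower in label-positive cells. Gclc and Gclm, the subunits that set the rate of glutathione synthesis, were 1.92-fold and 2.61-fold higher, and Nqo1 was 2.23-fold higher. Ephx2, the soluble epoxide hydrolase, was 20.5-fold higher, from 1.18 to 24.1. The 4 lower genes were Ggt1 and Ggt5, which break down extracellular glutathione and its conjugates, Mgst2, a microsomal enzyme of leukotriene synthesis, and Slc7a11, which imports cystine. They were lower by 7.50-fold, 4.40-fold, 9.87-fold and 2.83-fold.

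Of 26 cytochrome P450 rows, 23 were higher and 3 lower in label-positive qHSCs, and Cyp4b1 outweighed the others. This enzyme, which hydroxylates fatty acids and bioactivates furan toxins, stood at an FPKM of 239 in the label-negative and 651 in the label-positive fraction, against a family sum of 412 and 907. In the label-positive fraction Cyp26b1 came next, then Cyp2d22, a member of the drug-metabolising 2D subfamily, at 26.0 and 64.6, and the orphan enzyme Cyp20a1, at 18.3 and 38.9. These 4 were higher by 2.13-fold to 2.72-fold. In the label-negative fraction the second place was held by Cyp4f18, which was lower in label-positive cells and is described with the lipid enzymes.

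A further 7 cytochromes P450 of the 2a, 2c, 2d and 2f subfamilies were called at low levels. In label-positive cells Cyp2f2 stood at 4.07, Cyp2c50 at 3.64, Cyp2c29 at 2.46, Cyp2c44 at 1.81, Cyp2d9 at 1.72, Cyp2c67 at 1.46 and Cyp2a12 at 0.984. In label-negative cells the FPKM of these 7 lay between 0.207 for Cyp2d9 and 1.47 for Cyp2f2. None of 5 annotated protein-coding Cyp2b genes and none of 9 Cyp3a genes had a row, so no level can be given for them. Cyp1a1, the classical target of the aryl hydrocarbon receptor, rose from 0.0987 to 0.924 and thus stayed below 1 in both fractions, and the other 5 genes of a 6-gene list of targets of that receptor had no row.

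Cytochromes P450 acting on arachidonic acid and related lipids were higher in 7 of 8 called cases out of 16 listed. The epoxygenases Cyp2j6, Cyp2j9 and Cyp2j5 had an FPKM of 4.94, 1.70 and 0.903 in the label-negative fraction and of 12.9, 4.32 and 3.48 in label-positive cells. The omega-hydroxylase Cyp4a12a was 17.4-fold higher but rose only to 1.54, and Cyp4f14 stood at 0.724 and 1.61. The exception was Cyp4f18, the leukotriene hydroxylase of leukocytes, with 52.3 in the label-negative and 7.56 in the label-positive fraction, 6.93-fold lower. It was the most abundant of the lower members in the label-negative fraction.

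Sterol and bile acid enzymes pointed in both directions, with 3 higher and 2 lower of 5 called among 15 listed. Cyp7a1, the rate-limiting enzyme of bile acid synthesis, stood at an FPKM of 0.130 in the label-negative and 1.38 in the label-positive fraction, 10.6-fold higher at a low level. Cyp8b1, which directs synthesis to cholic acid, stood at 0.899 and 2.02, and the oxysterol hydroxylase Cyp7b1 at 1.62 and 4.02. Cyp51, the lanosterol demethylase of cholesterol synthesis, was 3.27-fold lower, at 16.3 and 4.995. Cyp11a1, which cleaves the cholesterol side chain to make pregnenolone, was 5.77-fold lower, at 3.57 and 0.619.

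Partners that pass electrons to cytochromes P450 and the receptors that induce them were called in 1 direction. Of 6 electron donors, 4 had a row and each was higher in the label-positive fraction, led by Cyb5a at 174 and 500 and Cyb5r3 at 51.4 and 173, while Por, the main reductase, had no row. Of 18 receptors and liver transcription factors, 10 had a row and all 10 were higher. Hnf4a, which defines hepatocyte identity, was 11.9-fold higher, at 1.10 and 13.0, and the pregnane receptor Nr1i2 was 10.7-fold higher at a low level, 0.155 and 1.66. The aryl hydrocarbon receptor Ahr, at 25.8 and 48.2, and Rxra, at 22.9 and 53.4, were higher by 1.87-fold and 2.33-fold.

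Sulfotransferases showed the widest spread of any family, with 4 genes higher and 2 lower. Sult2a8, a bile acid sulfotransferase of mouse liver, stood at an FPKM of 2.05 in the label-negative and 54.2 in the label-positive fraction, and its 26.4-fold difference was the largest of all members. Sult1d1, which sulfates catecholamines, was 15.2-fold higher, from 0.386 to 5.85, and Sult1b1, which acts on thyroid hormones, 13.0-fold higher, from 0.113 to 1.47. Sult1a1, the phenol sulfotransferase, had a higher level in both fractions and a smaller difference, 15.8 and 46.4. The oestrogen sulfotransferase Sult1e1 was 12.7-fold lower, from 1.27 to 0.0996, and the cholesterol sulfotransferase Sult2b1 9.18-fold lower, from 0.861 to 0.0938.

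Glucuronosyltransferases were called in both directions. The 5 Ugt2 genes were low and all higher in label-positive cells, from 2.10-fold for Ugt2b35 to 8.20-fold for Ugt2b36, the latter reaching an FPKM of 6.51. Ugt1a7c, the only called gene of the Ugt1a locus, was 3.65-fold lower, at 13.4 in the label-negative and 3.67 in the label-positive fraction. Because of it the summed FPKM of the family was close to equal, 15.9 and 15.7. Of 16 transporters that take up or expel such conjugates, 8 were higher and 2 lower, the 2 being the drug efflux pumps Abcb1a and Abcb1b, which were lower by 9.04-fold and 2.82-fold.

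All 7 carboxylesterases and all 4 flavin monooxygenases with a row were higher in label-positive cells. Ces2g had the highest level of the esterases, 38.2 in the label-negative and 100.04 in the label-positive fraction, followed by Ces2e at 12.5 and 30.6. Ces1f, a liver enzyme that hydrolyses drugs and stored lipid, differed most, 6.27-fold, from 0.504 to 3.16, and Ces3a least, 1.99-fold, from 1.09 to 2.18. Fmo1 had an FPKM of 41.2 and 107, and Fmo5 of 5.97 and 31.1, differences of 2.58-fold and 5.21-fold.

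The 9 members lower in label-positive cells were Cyp4f18, Cyp51, Ugt1a7c, Aldh18a1, Rdh12, Cyp11a1, Aldh1a2, Sult1e1 and Sult2b1. They came from 5 of the 9 families, Cyp, Aldh, Sult, Ugt and Rdh, and all were at least 2-fold lower. In label-negative cells Cyp4f18, Cyp51 and Ugt1a7c exceeded an FPKM of 10, while in label-positive cells no lower member exceeded 7.56. Over the same comparison the summed FPKM of a 14-gene lymphocyte list fell from 1774 to 84.3. All 14 genes were lower, with a median log2 ratio of -4.81. Of 12 called genes of a macrophage list 8 were higher and 4 lower. Among these 4 was the macrophage and neutrophil gene Lyz2, at 1283 and 289. The part of these cells in the 9 lower values was not tested. In sorted bulk samples fewer cells of a type and less RNA per cell cannot be told apart.

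Markers of other liver cells also moved with the 72 higher members. Of a 25-gene hepatocyte list 23 had a row and 22 were higher, with a summed FPKM of 350 in the label-negative and 1939 in the label-positive fraction and a median log2 ratio of 2.61. All 15 sinusoidal endothelial genes were higher, with sums of 5093 and 13915 and log2 ratios confined to between 1.28 and 1.86. Macrophage genes were mixed, with 8 higher, Clec4f and Marco among them, and 4 lower. Markers of cholangiocytes, 4 of 9, and of mesothelium, 7 of 10, were higher in each called case, at summed FPKM of 75.1 and 52.0 in label-positive cells. Of 21 stellate cell genes 12 had a row, 4 higher and 8 lower, with sums of 182 and 118, and the defining genes Lrat, Des and Reln had none. No listed marker with a row was at 0 in either fraction, and their part in the enzyme values was not tested.

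The narrow range of the endothelial genes gave a yardstick for the size of the enzyme differences, set after the values had been seen. Of the 72 higher members 26 had a log2 ratio inside that range, 30 above it and 15 below it, with Cyp4b1-ps2 having no ratio. The same counts over all rows were not made, so they describe the members and do not set them apart from other genes. The 26 members inside it included Cyp4b1, Gstp1, Gstm1, Fmo1, Ces2g, Gstm2 and Cyp2d22, all with an FPKM of at least 50 in label-positive cells. The 30 members above it had a median FPKM of 4.96 in label-positive and 0.774 in label-negative cells, and 4 of them, Gsta3, Adh1, Sult2a8 and Aldh1a1, reached an FPKM of 50. Aldh2, Adh5 and Cyp26b1 were the abundant members below it. Among the hepatocyte genes 15 lay above the endothelial range, 5 inside it and 2 below it, led by Mup20 and Arg1 at 33.1-fold and 28.5-fold higher, and Alb was higher by 2.82-fold, from 107 to 302.

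**Figure D3:**
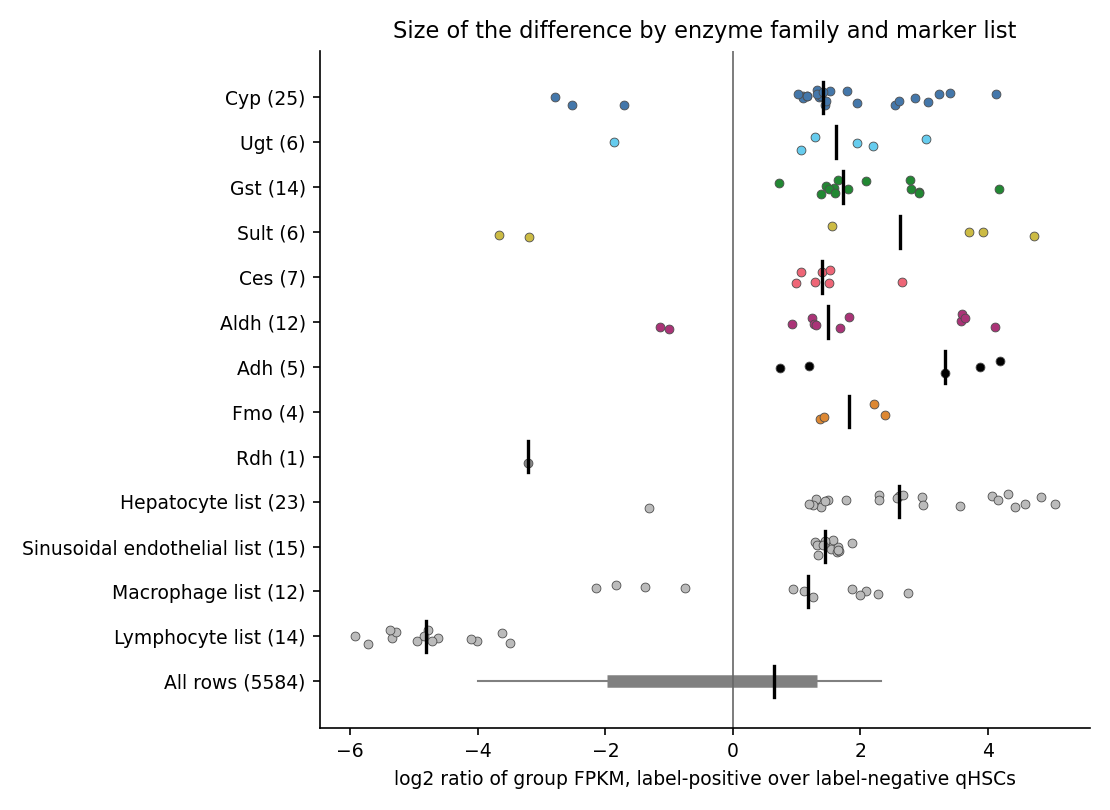
Log2 of label-positive over label-negative group FPKM, as given by the authors, for the members of each enzyme family (coloured) and for marker lists of 4 other cell types (grey), with the number of rows above 0 in both fractions in brackets. Black bars are medians, and the last line gives all 5584 rows as the 25th to 75th percentile (thick) and 5th to 95th percentile (thin). The Gst, Ces, Adh and Fmo points all lie right of 0, and the sinusoidal endothelial points are packed between 1.28 and 1.86.

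Several members known to be male-biased in mouse liver were called. Of 7 male-biased genes 5 had a row, each of them higher in the label-positive fraction, namely Gstp1, Gstp2, Cyp4a12a, Cyp2d9 and Cyp7b1. This is a count of called genes and not a measure of sex.

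The called members were a part of each family. By symbol, 81 of the 82 matched the GENCODE vM21 annotation, all but Cyp2c44. Of 232 annotated protein-coding genes of the 9 families 78 had a row in the qHSC table. The share of all annotated protein-coding genes with a row was not counted, so whether these families were called unusually often is unknown. The share there was highest for Adh, with 4 of 6, and Gst, with 14 of 22, and lowest for Rdh, with 1 of 14, and Cyp, with 24 of 100. Besides the Cyp2b and Cyp3a genes, none of 5 Aldh3, 2 Gsto and 2 Sult3 genes had a row.

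Many called members lie near one another in the genome. Family genes were joined into a cluster where gaps between them were at most 500000 bases, whatever other genes lay between. Since 88.9% of all members were higher, a direction shared within a cluster is to be read against that share. All 5 called genes of the Adh cluster, Adh1, Adh4, Adh5, Adh6b and Adh6-ps1, were higher in label-positive cells, as were all 5 of the Gstm cluster, all 4 of the Ces1 cluster and all 3 of the Gstt cluster. In the cluster that joins Ugt2 and Sult1 genes, 7 were higher and Sult1e1 alone was lower, although Sult1d1 lies close by and was higher. Aldh18a1, which was lower, falls in the same cluster as Cyp2c29, Cyp2c67 and Cyp2c50, which were higher. Cyp1a1 and Cyp11a1 also share a cluster by this rule, the former higher and the latter lower. Of the members, 11 have a transcript that matches that of another gene at 95% identity or more over 50% or more of its length, so that reads could have been divided between the pair in the authors' counting. Gstp1 and Gstp2 are 98.7% identical over the aligned part, Cyp4a12a and Cyp4a12b 98.2%, and Ugt1a7c shares 69.6% of its transcript with Ugt1a6a, and their values are uncertain to that extent. The others were Ces3a, Cyp2a12, Cyp2c67, Cyp4a32, Cyp4b1-ps2, Gstm1 and Ugt2b5.

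Promoter windows are shown for Sult1d1 and Sult1e1, which share a cluster, and for the pair of aryl hydrocarbon receptor targets called in different comparisons. Their sequence can thus be set beside their opposite or separate behaviour. Each window holds the 250 bases before the transcription start on the gene's own strand, from RefSeq on GRCm38.p6, in lower case with a motif match in capitals. They lie at chr5:87569007-87569256 on the minus strand for Sult1d1, chr5:87591612-87591861 on the minus strand for Sult1e1, chr9:57697363-57697612 on the plus strand for Cyp1a1 and chr17:79715062-79715311 on the minus strand for Cyp1b1.
Sult1d1: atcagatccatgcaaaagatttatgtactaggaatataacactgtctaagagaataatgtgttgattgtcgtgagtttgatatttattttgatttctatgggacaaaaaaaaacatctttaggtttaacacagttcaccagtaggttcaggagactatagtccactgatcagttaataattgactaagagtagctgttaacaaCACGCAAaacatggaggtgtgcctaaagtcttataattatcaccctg
Sult1e1: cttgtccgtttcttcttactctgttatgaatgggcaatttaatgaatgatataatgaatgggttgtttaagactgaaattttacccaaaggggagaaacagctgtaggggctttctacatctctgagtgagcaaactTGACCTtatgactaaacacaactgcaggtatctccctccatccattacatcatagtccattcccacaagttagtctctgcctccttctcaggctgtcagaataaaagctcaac
Cyp1a1: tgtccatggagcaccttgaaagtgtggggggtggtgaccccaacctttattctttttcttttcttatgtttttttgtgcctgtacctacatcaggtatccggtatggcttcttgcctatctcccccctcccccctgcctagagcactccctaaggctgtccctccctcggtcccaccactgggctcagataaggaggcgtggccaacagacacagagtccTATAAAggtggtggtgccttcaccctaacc
Cyp1b1: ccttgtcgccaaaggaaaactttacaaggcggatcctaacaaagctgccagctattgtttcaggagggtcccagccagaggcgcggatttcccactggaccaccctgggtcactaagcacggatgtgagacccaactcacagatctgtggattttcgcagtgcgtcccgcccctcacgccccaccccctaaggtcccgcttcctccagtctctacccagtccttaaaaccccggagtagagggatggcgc

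The capitals mark CACGCAA in Sult1d1, the reverse complement of the xenobiotic response element core TNGCGTG, 47 to 41 bases before the start. In Sult1e1 they mark TGACCT, the reverse complement of the nuclear receptor half-site AGGTCA, 113 to 108 bases before the start. In Cyp1a1 they mark a TATA box, TATAAA, 30 to 25 bases before the start. The Cyp1b1 window held none of the motifs searched. A window was available for 66 of the 82 members, 83 windows in all, and both strands were searched for every motif.

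The share of windows with each motif was counted for all genes and for the members of each direction. TNGCGTG was found in 4.10% of all 32851 windows, in 1 of 71 windows of higher members and in 2 of 11 windows of lower members. AGGTCA was found in 14.0% of all windows, in 13 of 71 and in 3 of 11, and the antioxidant response element core TGACNNNGC in 10.2%, in 4 of 71 and in 2 of 11. TATAAA was found in 12.4% of all windows, in 17 of 71 and in 0 of 11. The 71 windows came from 56 genes and the 11 from 9, so some genes were counted more than once. The median share of G and C bases was 52.4% over all windows, 48% for higher members and 54% for lower members. The part of this base composition in the motif shares was not tested. The WT1 element GCGTGGGAG, which can overlap the GCGTG of the xenobiotic core, was found in 0.405% of all windows and in 0 of the 71 and 11. Matches of such short letters are descriptions of the windows and not binding sites.

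Few of these enzymes had a row in the comparisons of WT1 deletion. In GFP-high aHSCs no member was among the 123 named rows. In GFP-intermediate aHSCs 2 members had a row, Cyp1b1 and Cyp7b1, and both were higher in WT1-deleted cells. Of all 419 named rows 37.2% were higher after deletion, and of the 379 above 0 in both groups 38.5% were at least 2-fold higher. With 2 members this count describes those genes and not the families.

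Cyp1b1, a cytochrome P450 of mesenchymal cells that oxidises oestrogens and polycyclic hydrocarbons, stood at an FPKM of 9.60 in control and at 30.1 in deleted cells, 3.13-fold higher. Cyp7b1, which also removes oxysterols outside the liver, stood at 19.5 and 66.7, 3.41-fold higher. Their log2 ratios of 1.65 and 1.77 lay among the other rows higher after deletion. In the separate qHSC table Cyp7b1 stood at 1.62 and 4.02 and Cyp1b1 had no row. None of the ethanol, vitamin A or eicosanoid enzymes of the families had a row in either deletion table, nor did any glutathione, sulfo or glucuronosyl transferase.

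**Figure D4:**
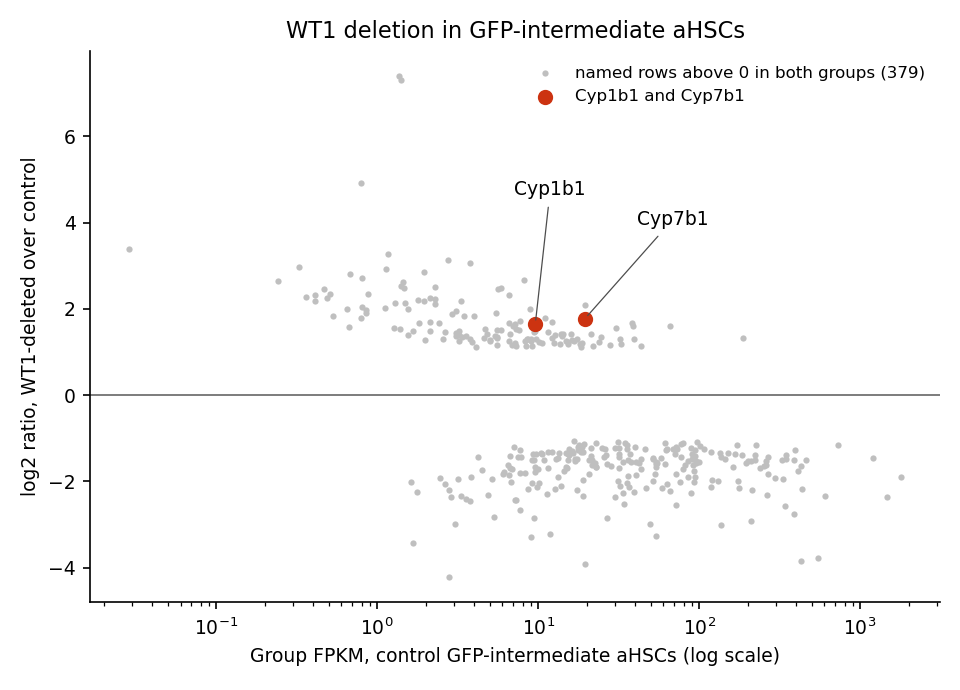
Log2 of the WT1-deleted over the control group FPKM, as given by the authors, against the control FPKM on a log scale for the 379 named rows of GFP-intermediate aHSCs above 0 in both groups. Cyp1b1 and Cyp7b1 (red) lie at 1.65 and 1.77, among the rows higher in WT1-deleted cells.

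Genes tied to the families by function differed in both directions in GFP-intermediate cells. Ephx2 was 2.37-fold higher after deletion, at 8.28 and 19.6. Slc7a11 was 3.40-fold lower, at 14.4 and 4.24, the conjugate efflux pump gene Abcc3 4.35-fold lower, at 36.5 and 8.38, and the transcription factor gene Cebpa 3.29-fold lower, at 79.5 and 24.2. Lpl, which releases lipid and retinyl esters from lipoproteins, was 5.94-fold lower, at 342 and 57.7. There, 9 rows of the macrophage list were all lower, with a summed FPKM of 5175 in the control and 1280 in the deleted group, and stellate genes were mixed, with Lum, Colec11, Rgs5 and Pdgfra higher and Hgf lower. No hepatocyte gene of the list had a row in GFP-intermediate cells, and in GFP-high cells only Cps1 and Fga did, both at an FPKM below 7. The part of the macrophage values in those of Cyp1b1 and Cyp7b1 was not tested, and with 1 value for each group the spread between animals behind either gene is unknown.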

How the data were processed

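RNA from 16 samples was sequenced by the authors, and their processing notes name TopHat2 2.0.3, Cufflinks 2.0.1, DESeq2 and the builds mm9 and mm10 without roles. Calls were made with Cuffdiff2. The files deposited by the authors hold a single FPKM per called gene and group, with replicates combined, so the depth per sample and the error of each value are unknown. Their further columns of log2 fold changes, p-values and q-values were not used. The deletion tables also hold 108 and 149 loci without a gene name, which were left out. Groups followed the sample labels.

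Log2 ratios of the group FPKM were computed without a pseudocount, for rows above 0 in both groups. A row was counted as different past 2-fold, and no test was run. Enzymes and marker or pathway lists were chosen with earlier results of these data known. Named members were those of the role lists, the most abundant 5 and the largest differences of each family, and every member of the deletion tables. Other members were named after their values had been seen. The alternatives were pseudocounts of 1 and 0.1, an FPKM of at least 1, folds of 1.5 and 3, rows naming 1 gene, centring on the median ratio and, added after the data were seen, leaving out near copies, an FPKM of at least 10, and a background with unnamed rows. Members were matched by symbol to GENCODE vM21, and their transcripts were aligned with blastn 2.17.0. The counting was tested on simulated data. Python 3.11.15, pandas 2.3.3, numpy 2.4.6 and matplotlib 3.10.9 were used. Some items are not reported here.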

Additional observations from a re-analysis of the deposited data

How the results depend on the processing

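Of the counts of higher and lower members, 48 values under the alternatives stayed within 1.5 times the reported count and 6 did not. Many of the 48 could not move. Counts by direction do not depend on the fold or pseudocount, and the limit to rows naming 1 gene removed no member. The 48 also include the counts for Cyp1b1 and Cyp7b1, which were 2 in every setting. With only members of at least 10 FPKM in the higher fraction, 31 were higher and 3 lower in label-positive qHSCs, 28 and 3 of them by at least 2-fold, fewer because fewer members were counted. At a fold of at least 3, 36 members were higher, and after centring on the median of all rows 35 were at least 2-fold higher. The median log2 ratio of the qHSC members was 0.88 after centring and 1.15 with a pseudocount of 1, against 1.52, and that of Cyp1b1 and Cyp7b1 was 3.04 after centring, against 1.71. Only centring on the median could reverse a direction, and it reversed none. The pseudocounts, folds and filters could not do so. With unnamed loci counted, 32.7% of rows in GFP-intermediate aHSCs were higher after deletion, against 37.2%. No paired analysis was possible because the values combine the replicates of a group, and no replicate could be left out for the same reason. Group values of called genes limit every statement to the direction and size of called differences.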
